A study of Rattus norvegicus with 8 samples.

Results

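miR-335 (rno-miR-335) is 1 of 677 rat microRNAs (miRNAs) measured on 1-colour Agilent arrays in pancreatic islets, the endocrine cell clusters in which insulin-secreting beta cells prevail. It was taken by its name on the array, where 2 probes of 10 features each report it. No star product of its hairpin is on the array. It was among the 238 miRNAs that were bright enough to be tested. The tested samples came from islets of male Sprague Dawley rats 3 months old (adult, 4 arrays), set against islets of Sprague Dawley rats 10 days old (P10, 4 arrays). Both ages are labelled as controls, and no allele, transgene or treatment is given for either. Each array is labelled a biological replicate, without the number of animals that gave its islets or the sex of the P10 rats, so p-values measure the spread between these arrays. The islet miRNA miR-375 was well above background on all 8 arrays. By its title the study asks about the maturation of beta cells.

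miRNAs are short RNAs that pair with messenger RNAs, chiefly through their seed (bases 2 to 8), and lower the output of their targets. miR-335 is processed from an intron of Mest, an imprinted gene expressed from the paternal copy and active in fetal and mesodermal tissue. In islets miR-335 is known for its higher level in the diabetic Goto-Kakizaki (GK) rat, and in a rat insulinoma cell line for lowering insulin secretion through proteins of the exocytosis machinery. In the RefSeq annotation of GRCr8, Mest lies on chromosome 4 between Cep41 and Copg2.

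The mature sequences of the miRNAs that miR-335 is set against are shown to separate those that share a seed from those that do not, as RefSeq gives them for GRCr8, with the seed in capitals. The array's names were matched to the arm that carries the name in RefSeq.
miR-130a: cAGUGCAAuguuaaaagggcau
miR-130b: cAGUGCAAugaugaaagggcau
miR-132: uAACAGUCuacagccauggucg
miR-212: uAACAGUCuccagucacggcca
miR-375: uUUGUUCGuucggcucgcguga
miR-7a: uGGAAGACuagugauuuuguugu
miR-342-3p: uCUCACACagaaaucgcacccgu
miR-99b: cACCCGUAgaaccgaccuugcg
miR-210: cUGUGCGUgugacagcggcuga
The first pair, miR-130a and miR-130b, share the seed AGUGCAA and differ at 2 of 22 positions, and the second, miR-132 and miR-212, share AACAGUC and differ at 5 of 22. The other 5 have seeds of their own among these 9.

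miR-335 showed no difference between adult and P10 islets that exceeded the spread between arrays. On its brighter probe the scaled signal, log2 relative to the array's 75th percentile, was -0.88, -1.66, -0.80 and -0.70 on adult replicates 1 to 4, against -1.41, -1.14, -0.63 and -0.83 on P10 replicates 1 to 4. The ages overlapped, and the lowest value of all 8 was that of adult replicate 2. The means were -1.01 ± 0.44 in adult and -1.003 ± 0.34 in P10 (SD, n = 4 each). The difference, adult minus P10, was -0.0071 ± 0.26 (log2, SE), with a 95% interval of -0.60 to 0.59 and a limma adjusted p of 0.98. That interval does not exclude a level up to 1.516-fold lower or 1.502-fold higher in adult. For comparison, 113 of the 238 tested miRNAs (47.5%) passed the same test, and 109 (45.8%) had adult and P10 arrays without overlap.

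The dimmer probe had the same 2 lowest arrays, adult replicate 2 and P10 replicate 1. It read -2.31, -3.03, -2.07 and -1.96 on adult replicates 1 to 4 and -2.75, -2.27, -1.87 and -2.05 on P10 replicates 1 to 4. Its difference was -0.10 (exact two-sided permutation p = 0.686, n = 4 each), where the brighter probe gave an exact p of 1. The gap between the probes was 1.26 to 1.42 on adult arrays and 1.13 to 1.35 on P10 arrays (exact permutation p = 0.143), a narrower range than that of either probe's own values.

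Before scaling, the brighter probe had a mean processed signal of 734, 443, 964 and 792 on adult replicates 1 to 4 and of 147, 199, 638 and 948 on P10 replicates 1 to 4. All of its used features (9 or 10 per array) were well above background on every array. In the authors' value table, where arrays share 1 set of sorted values, miR-335 stood at 9.07, 8.35, 9.18 and 9.40 in adult and at 8.43, 8.69, 9.18 and 9.05 in P10 (log2). The table's difference was 0.16 (exact permutation p = 0.6, n = 4 each), and adult replicate 2 was again the lowest of the 8 arrays.

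**Figure D1:**
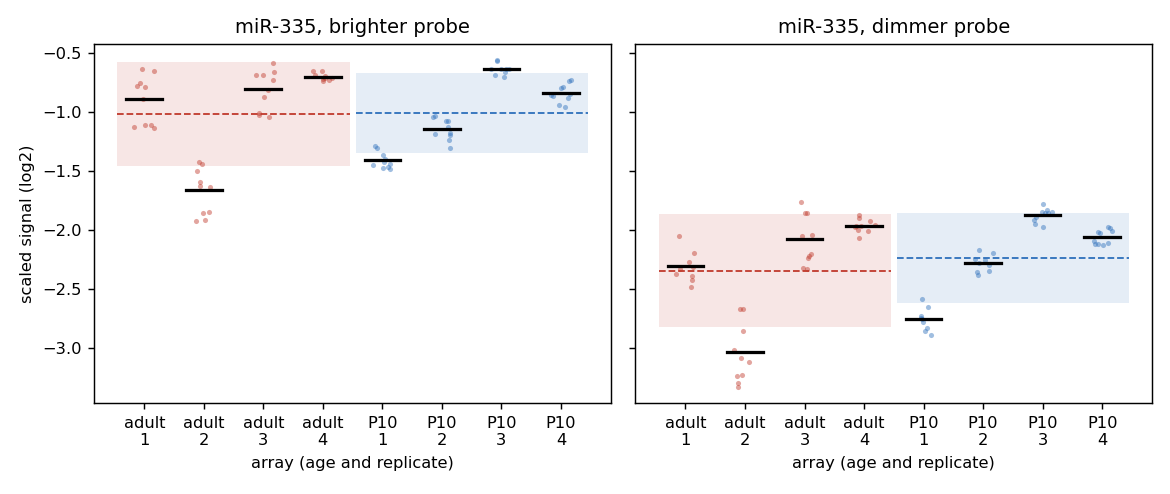
Scaled signal of miR-335 (log2, relative to the array's 75th percentile) on each array, adult left and P10 right in each panel, for the brighter and the dimmer probe. Points are features, black bars array values, dashed lines group means and bands ± 1 SD (n = 4 arrays). On both probes adult replicate 2 is lowest (-1.66 and -3.03), and P10 replicate 1 is the lowest of its age.

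The adult arrays agreed closely for most miRNAs, but not for miR-335. Over the 164 miRNAs above background on all 8 arrays, the median SD between adult arrays was 0.11 (log2), against 0.44 for miR-335, which ranked 8 from the largest. Between P10 arrays the median SD was 0.35 and that of miR-335 was 0.34, rank 84 of 164.

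The adult spread came from replicate 2. There miR-335 lay 0.87 below the mean of the other 3 adult arrays on the brighter probe, a 1.83-fold shortfall, and 0.92 below it on the dimmer probe. This was the largest shortfall of any of the 164 miRNAs on that array, where 5% to 95% of them departed by -0.20 to 0.23. Its rank does not depend on a scaling factor common to the array. Without replicate 2 the SD of the other 3 adult arrays was 0.09. The next lowest on that array, chosen after their values were seen, were miR-494 (-0.65), miR-125a-3p (-0.33), miR-130b (-0.32), miR-342-3p (-0.29) and miR-210 (-0.22), and miR-21 departed most upward (0.47).

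The shortfall was larger than the spread between features. The brightest feature of the brighter probe on adult replicate 2 read -1.42, below the dimmest feature on each of the other adult arrays (-1.13, -1.04 and -0.74). On the dimmer probe the brightest feature there read -2.66, against -2.48, -2.33 and -2.07 for the dimmest on adult replicates 1, 3 and 4. The coefficient of variation between features of the miR-335 probes (brighter, then dimmer) was 13.4% and 17.8% on adult replicate 2. It was 13.9% and 9.35% on adult replicate 1, 11.5% and 14.5% on adult replicate 3, 2.19% and 3.88% on adult replicate 4, and 3.28% to 6.81% on P10 arrays. The median over 278 bright probes was 10.5% on adult replicate 2, 9.51% and 9.92% on adult replicates 1 and 3, 3.91% on adult replicate 4 and 5.37% to 7.81% on P10 arrays. Adult replicate 2 also had 218 miRNAs well above background, against 241 to 248 on the other adult arrays. Whether feature evenness or detection plays a part in the low miR-335 was not tested.

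**Figure D2:**
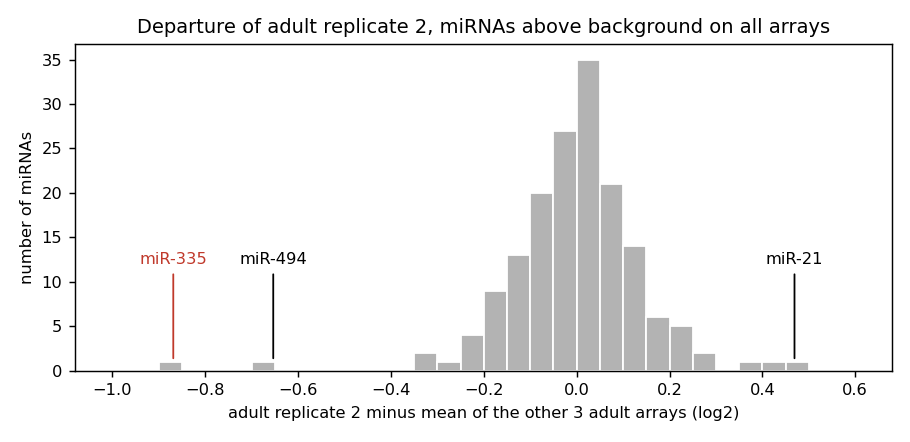
Departure of adult replicate 2 from the mean of the other 3 adult arrays (log2, horizontal axis) for the 164 miRNAs above background on all arrays, as a count of miRNAs in steps of 0.05 (vertical axis). miR-335 lies lowest at -0.87, followed by miR-494 at -0.65, and miR-21 lies highest at 0.47.

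Among P10 arrays, replicates 1 and 2 had less miR-335 (-1.41 and -1.14) than replicates 3 and 4 (-0.63 and -0.83). That order was common, since 69 of 238 tested miRNAs had it and 95 had the opposite one. Replicates 1 and 2 were also the dimmest arrays, with a 75th percentile signal of 388 and 440, against 989 and 1690 on P10 replicates 3 and 4 and 1284 to 1677 on adult arrays. All arrays lay on 1 slide with each age in its own column, so that age and slide column cannot be told apart. With P10 replicates 3 and 4 alone, the difference between adult and P10 was -0.28 (95% interval -0.96 to 0.40, limma adjusted p = 0.442). Leaving out adult replicate 2 gave 0.21 (95% interval -0.27 to 0.69, adjusted p = 0.471). Without all 3 of these arrays it was -0.06 with an interval of -0.36 to 0.24 (adjusted p = 0.712), a choice made after seeing the data.

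The sign of miR-335 depended on the scaling of the arrays. It stood at 0.95 without scaling and at 1.05 with spike-in scaling, where the median of all tested miRNAs stood at 0.94 and 1.03. It stood at 0.46 with the percentile taken over all probes, beside a median of 0.45. In these 3 settings miR-335 moved by about as much as the median miRNA. miR-335 stood at 0.16 with quantile normalization and at 0.087 with the total gene signal, beside a median of 0.11 in both, and at -0.10 with normexp, a background correction, beside -0.28. With cyclic loess on bright probes it stood at -0.05, on the other side of 0 from the median of 0.19. The lowest value, -1.17, came from cyclic loess over all probes, with an interval of -3.12 to 0.78 and a median of 0.19. In none of 30 alternatives did miR-335 pass the threshold (lowest adjusted p 0.176).

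**Figure D3:**
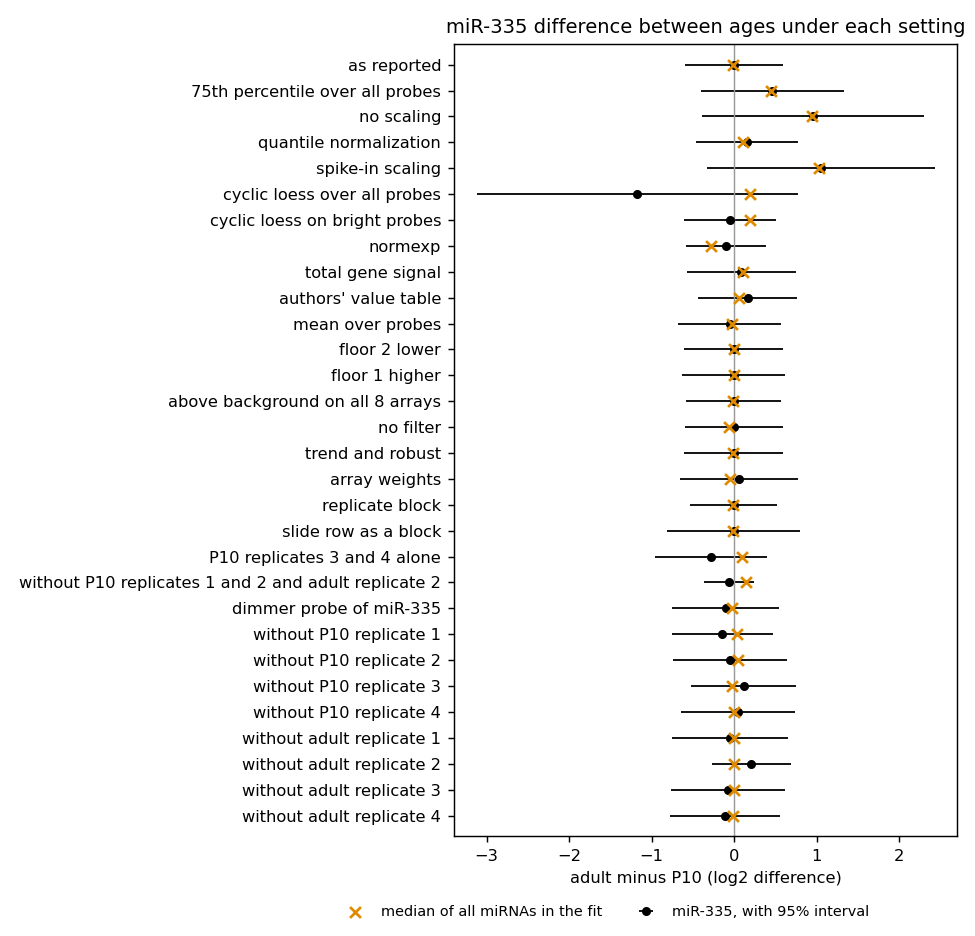
Difference of miR-335 between ages (adult minus P10, log2, horizontal axis) under each setting (rows), as points with 95% intervals from limma, with the median of all miRNAs in the same fit as crosses. Every interval includes 0, and the points at 0.46, 0.95 and 1.05 lie on the crosses of their rows.

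Ratios to other miRNAs of the same array do not depend on a scaling factor common to the array, and 7 were computed. Relative to miR-375, a well studied islet miRNA and a brake on insulin exocytosis, miR-335 was lower on every adult array than on any P10 array. The log2 ratio was -4.66, -5.32, -4.38 and -4.61 on adult replicates 1 to 4, against -4.30, -4.32, -4.20 and -4.27 on P10 replicates 1 to 4. Levels of different probes are not comparable, so only the shift between ages is read from these ratios. With the scaling used here miR-335 itself differed by -0.0071. Each mean shift is therefore close to the partner's own difference with the sign reversed, and that of miR-375 was 0.47. The SD between adult arrays was 0.40 and that between P10 arrays 0.054, although the brightness of the P10 arrays differed. The mean shift was -0.47 (exact two-sided p = 0.0286, the smallest that 70 splits allow, and 0.05 adjusted over 7 ratios, n = 4 each), which is not under the threshold. In the authors' value table the shift had the opposite sign (0.58, adjusted exact p = 0.1).

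Against miR-7a, an abundant islet miRNA that acts on secretion and proliferation, the ratio was also lower on every adult array. It was -5.88 ± 0.39 in adult and -4.02 ± 0.52 in P10 (SD, n = 4 each), a shift of -1.86 without overlap, but one of -0.68 in the authors' value table (adjusted exact p = 0.257). Against miR-199a-5p, a mesenchymal miRNA, the ratio was higher on every adult array. It was 1.46 ± 0.55 in adult and -0.28 ± 0.37 in P10 (SD, n = 4 each), a shift of 1.74 without overlap. These 2 shifts each had an exact p of 0.0286 and an adjusted p of 0.05. The ages overlapped for the ratio to the endothelial miR-126, with a shift of 0.14 (adjusted exact p = 0.6), and for that to the vascular smooth muscle miR-143, with -0.94 (adjusted exact p = 0.0667). In the authors' value table these last 2 shifts were 0.67 and -0.45. None of the 7 ratios passed after adjustment. The test allows no exact p below 0.0286, so a ratio without overlap could pass only if enough other ratios reached that value too. Without adult replicate 2, 6 of 7 passed with an adjusted exact p of 0.0333. Among them were those to miR-375 (-0.28), miR-7a (-1.67), miR-199a-5p (2.00) and miR-126 (0.37). That array is singled out here because miR-335 itself was lowest on it, a choice made after seeing the data. Leaving it out brings the adult ratios closer together, so nothing is concluded from these passes. With any other single array left out, 0 of 7 passed.

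**Figure D4:**
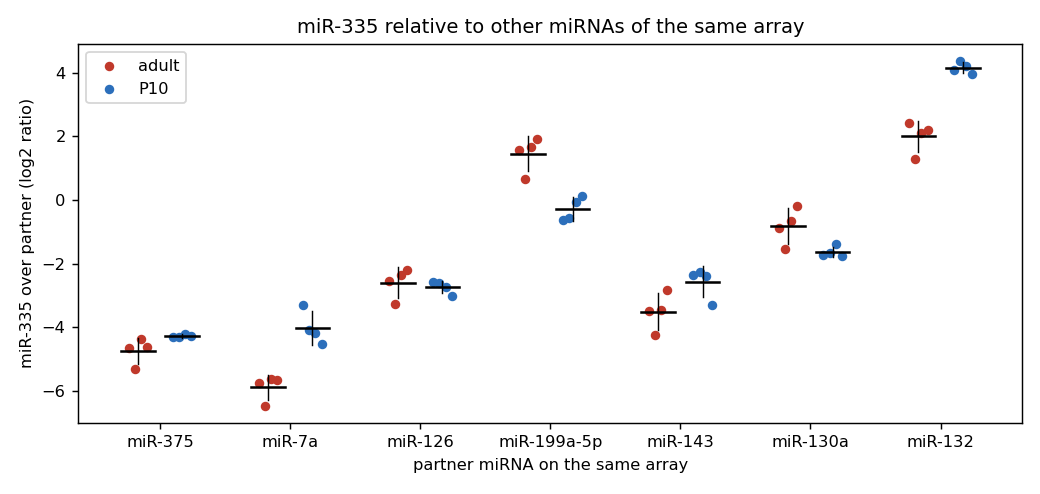
Log2 ratio of miR-335 to each of 7 other miRNAs of the same array (vertical axis), with adult left and P10 right for each partner, as points for arrays, bars for means and thin lines for ± 1 SD (n = 4 each). Adult and P10 points are apart for miR-375, miR-7a, miR-199a-5p and miR-132, and adult replicate 2 is the lowest adult point for each of the 7 partners.

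In GK islets miR-335 is known as regulated by hyperglycaemia together with miR-130a, miR-132 and miR-212. Between ages, 2 of these 3 were called and miR-335 was not. miR-130a, known to act on beta-cell ATP supply, was at -0.01, -0.12, -0.13 and -0.50 in adult, against 0.31, 0.52, 0.76 and 0.94 in P10, and fell by 0.82 (limma adjusted p = 0.00541), but stood at 0.14 without scaling and 0.24 with spike-in scaling, below the median of all miRNAs in both. miR-132, an activity-induced miRNA, was well above background on all 4 adult arrays and on 2 of 4 P10 arrays, and rose (adjusted p = 0.000141). Since P10 replicates 1 and 2 were at the floor, its size is left out here. miR-212, which shares its seed, stood at 0.26 ± 0.29 (log2 difference, SE, adjusted p = 0.504). It was called higher with cyclic loess on bright probes (0.85, limma adjusted p = 0.00312) and in the authors' value table (0.56, adjusted p = 0.0224). With the percentile over all probes, no scaling and spike-in scaling it was also called higher (0.73, 1.22 and 1.32). The median of all miRNAs stood at 0.45, 0.94 and 1.03 there. With normexp miR-212 stood at -0.28. Of the 3, therefore, 1 rose, 1 fell and 1 did not pass with the scaling used here. The group's median difference was 0.26, against -0.01 over all tested miRNAs. The share called over all was 27.3% higher and 20.2% lower in adult. The ratio of miR-335 to miR-130a shifted by 0.81 (adjusted exact p = 0.0667), and that to miR-132 was lower on every adult array than on any P10 array (adjusted exact p = 0.05).

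A wider list of 21 miRNAs known to act on insulin secretion or beta-cell function had 17 tested members, of which 8 rose and 2 fell in adult, beside 27.3% higher and 20.2% lower over all tested miRNAs, with a median of 0.47, beside -0.01 over all. The largest differences among those called were those of miR-29b (3.59 ± 0.24), miR-130b (-2.88 ± 0.39), miR-29c (2.68 ± 0.17) and miR-29a (2.66 ± 0.13), all log2 differences with SE and limma adjusted p of 1.63e-05, 0.000579, 1.63e-05 and 7.87e-06. The miR-29 members act on a lactate transporter and on syntaxin, and miR-130b on ATP supply. With the scaling used here miR-335 was on the side of miR-34a (-0.05), miR-152 (-0.02), miR-33 (-0.04), miR-146a (0.21), miR-21 (-0.35), miR-212 (0.26) and miR-145 (0.79), which did not pass. Of these, only miR-146a passed under no other scaling or background setting. miR-21 was called lower with quantile normalization (-0.94), cyclic loess on bright probes (-0.91) and the authors' value table (-0.97, limma adjusted p = 0.012). The others were each called higher under some setting. miR-145 was well above background on 2 P10 arrays and at the floor on 1. With cyclic loess over all probes 2 of the 17 were called and both were higher, beside 20 of all 238 called, 7 of them higher.

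**Figure D5:**
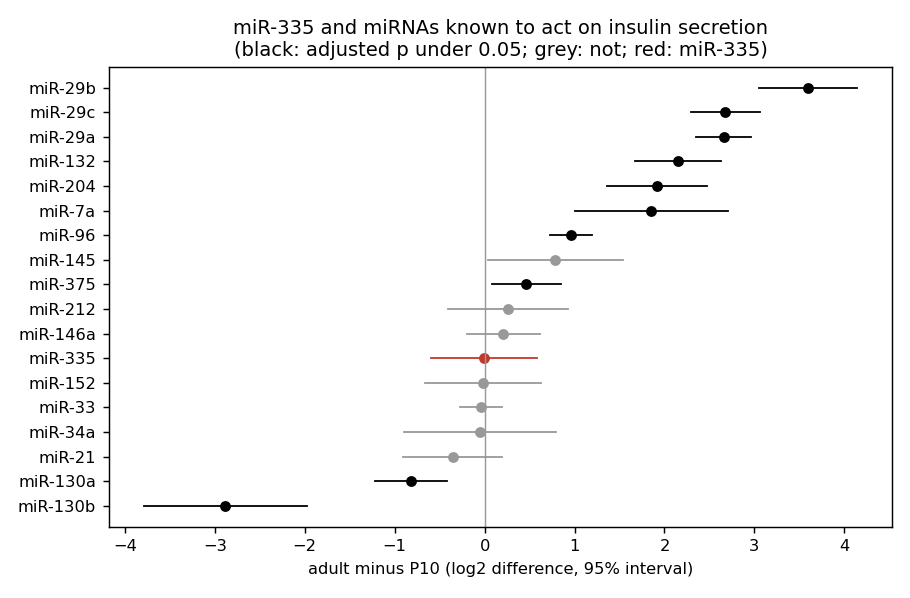
Difference between ages (adult minus P10, log2, horizontal axis) for miR-335 and the 17 tested miRNAs known to act on insulin secretion (rows), with 95% intervals from limma. miR-335 lies at -0.01 between members called higher, up to miR-29b at 3.59, and members called lower, down to miR-130b at -2.88. The size for miR-132 rests on 2 P10 arrays at the floor, and that for miR-145 on 1.

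miR-335 shares an imprinted origin with miRNAs of the Igf2, H19 and Gnas loci. Of 8 such products on the array, 2 were tested, and 5 were not well above background on any array. miR-483*, from an intron of Igf2, was at -1.61, -1.41, -2.35 and -1.56 in adult, against -2.995, -2.30, -4.12 and -3.04 in P10. It rose by 1.38 ± 0.39 (log2, SE, limma adjusted p = 0.0206), although adult replicate 3 lay below P10 replicate 2. miR-296*, from the Gnas locus, lay between -4.15 and -3.76 in adult and between -3.75 and -2.42 in P10, without overlap, and fell by 0.93 ± 0.29 (limma adjusted p = 0.0342), but was above 0 under 3 settings, at 0.28 (cyclic loess over all probes), 0.13 (spike-in scaling) and 0.03 (no scaling).

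The 5 tested miRNAs whose pattern over the 8 arrays was most like that of miR-335 were miR-421*, miR-342-3p, miR-99b, miR-210 and miR-487b. Likeness was the root mean square difference of log2 values, each miRNA centred on its own mean, and came to 0.20, 0.23, 0.25, 0.27 and 0.29 against a median of 0.58 over 237 miRNAs. Since likeness was measured over the same arrays, their differences between ages (0.10, 0.06, 0.05, -0.22 and -0.06) and their low arrays follow in part from the choice. miR-342-3p, hosted in an intron of Evl, read -1.42, -1.76, -1.43 and -1.56 in adult and -1.95, -1.68, -1.49 and -1.31 in P10, so that adult replicate 2 and P10 replicate 1 were the lowest of their ages. miR-210, the hypoxia miRNA, had adult replicate 2 as its lowest array (-3.29). miR-421* was well above background on 3 adult and 2 P10 arrays and at the floor on 1 of each age, so that its likeness rests in part on signal near background.

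Other cell types of the islet preparation were read from marker miRNAs, as levels summed over each list relative to the array's 75th percentile. Probes differ in brightness, so the brightest members weigh most in each sum. On adult arrays these were miR-7a (4.80 to 4.98, log2) among islet endocrine and miR-143 (2.13 to 2.66) among mesenchymal markers. A sum can therefore hide opposite changes of its dimmer members. In bulk samples, fewer cells of a type and less RNA per cell cannot be told apart. The marker calls are to be read beside the 27.3% of tested miRNAs called higher and 20.2% called lower in adult. Of the islet endocrine markers, all 5 tested rose in adult, led by miR-204 (1.91), miR-7a (1.85), miR-153 (1.61) and miR-7b (1.09), with summed levels of 44.1 to 50.2 in adult and 11.9 to 26.0 in P10. The fifth of them, miR-375, rose by 0.47 but turned to -0.30 with quantile normalization, -0.28 with cyclic loess on bright probes and -0.41 in the authors' value table. Under other settings the number called dropped to 3 (no scaling, spike-in scaling, cyclic loess on bright probes), 2 (quantile normalization, authors' value table) or 0 (cyclic loess over all probes). Of 5 mesenchymal markers, miR-199a-5p (-1.75), miR-214 (-1.64) and miR-199a-3p (-1.62) fell and miR-143 (0.93) rose, with sums of 5.10 to 7.11 in adult and 4.27 to 7.38 in P10. The rise of miR-143 was near the threshold (limma adjusted p = 0.0485), and its ages overlapped. Among the other scaling and background settings it passed only with the percentile over all probes (0.0404) and total gene signal (0.0479). Under 3 settings (no scaling, spike-in scaling, cyclic loess over all probes) 0 of the 5 were called, beside 75, 63 and 20 of all 238. With cyclic loess over all probes miR-199a-5p was no longer below 0. All 3 gut epithelium markers fell, with sums of 0.280 to 0.508 in adult and 1.11 to 13.5 in P10. Among them miR-215 exceeded background on 0 of 4 adult arrays and on 4 of 4 P10 arrays. Of the gut markers, 2 were called with no scaling and with cyclic loess over all probes, and 1 with spike-in scaling.

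Neither endothelial marker passed (miR-126 at -0.15 and miR-126* at -0.06), although miR-126 was called lower with quantile normalization (-0.78, limma adjusted p = 0.0326) and miR-126* with normexp (-0.46, adjusted p = 0.0119), and their sum was 2.92 to 3.32 in adult and 2.34 to 4.71 in P10. Of 3 tested acinar markers none passed (miR-216a and miR-217, at the floor on 1 and 2 P10 arrays), with sums of 0.252 to 0.482 in adult and 0.0881 to 0.983 in P10. miR-217 was called higher with no scaling (1.59, limma adjusted p = 0.0156) and with spike-in scaling (1.72, adjusted p = 0.0147). The median of all miRNAs stood at 0.94 and 1.03 in these settings. On P10 replicates 1 and 2, where miR-335 was lower, the acinar sum was 0.983 and 0.823, above the 0.103 and 0.0881 of replicates 3 and 4. The sums that were lower on replicates 1 and 2, as miR-335 was, were the islet endocrine (11.9 and 18.2, against 25.6 and 26.0), the mesenchymal (4.27 and 4.78, against 6.11 and 7.38), the endothelial (2.34 and 2.83, against 4.43 and 4.71) and the leukocyte sum (1.06 and 0.721, against 1.43 and 3.64). Not every member followed its sum. The brightest mesenchymal marker, miR-143, was at 0.94 and 1.11 on P10 replicates 1 and 2, against 1.75 and 2.46 on replicates 3 and 4. In contrast, miR-199a-5p was lowest on P10 replicate 4 (-0.95). The part of these sums in the P10 spread of miR-335 was not tested. None of 4 tested leukocyte markers passed (miR-142-3p at 0.99, and miR-142-5p, at the floor on 3 of 4 P10 arrays), with sums of 1.24 to 1.58 in adult and 0.721 to 3.64 in P10. Both tested erythroid markers rose (miR-451 by 1.47, and miR-144, whose size is left out because 2 P10 arrays and 1 adult array were at the floor and which turned to -0.28 with normexp), with sums of 0.250 to 0.652 in adult and 0.147 to 0.253 in P10. Over all tested miRNAs, 27.3% were called higher and 20.2% lower in adult. On adult replicate 2, where miR-335 was low, 6 of the 7 sums lay within the range of the other adult arrays, and the islet endocrine sum was 44.1 there, against 44.6 to 50.2.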

How the data were processed

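The deposited scanner files hold intensity values with the background already subtracted, made with Agilent Feature Extraction version 10.7.3.1 according to their headers. The authors' value table holds log2 values for 311 miRNAs, by steps not given in the sources used here. All 8 of its columns have a median of 6.54. Outlier features were dropped and a probe's other features averaged. The 75th percentile of 278 probes, those exceeding background on every array, set the scale of an array, and values were then raised to a common floor and put on the log2 scale. The probe of highest mean stands for its miRNA. A miRNA entered the test if 4 or more of the 8 arrays exceeded background, which 238 did, with limma 3.58.1 in R 4.3.3 (Benjamini-Hochberg adjustment, threshold 0.05). Single values and within-array ratios were tested with exact two-sided permutation tests. The limma step was tested on simulated data. miR-335 and the lists were chosen with earlier results of these data known. Within each list, up to 4 called members with the largest differences are named, or the 2 largest differences where none was called. Also named are the partners of the ratios and the 5 miRNAs with the most similar pattern. Alternatives covered scaling, background correction, signal column, probe, filter, floor, variance model, blocks and left-out arrays. The planned correction by normexp used the median signals. The replicate numbers were not taken as pairs, since the labels tie them to no shared animal or day. The correlation of deviations exceeded the required 0.1 for only 2 of 4 numbers.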

Additional observations from a re-analysis of the deposited data

Results flagged for a closer look

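Within each age, the farthest of 4 arrays was compared with the rest by Dixon's ratio of gap to range and its 95% critical value. Over 85 sets of values 7 exceeded it, where chance flags about 1 in 20. The ratio of miR-335 to miR-7a was set apart on adult replicate 2 (0.860), at -6.46 against -5.76, -5.64 and -5.67. miR-335 itself did not exceed the critical value on that array (0.807 on the brighter probe, 0.676 on the dimmer probe and 0.685 in the authors' value table). The ratio of miR-335 to miR-143 was set apart on P10 replicate 4 (0.871), at -3.29 against -2.34, -2.25 and -2.39. miR-143 stood apart on adult replicate 4 (0.872), and so did miR-451 (0.847). miR-132 stood apart on adult replicate 1 (0.863). miR-142-3p (0.845) and miR-142-5p (1), both leukocyte markers, stood apart on P10 replicate 4, the second because the other 3 P10 arrays were at the floor.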

How the results depend on the processing

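miR-335 did not pass in any of 30 alternatives. Its sign turned positive with the percentile over all probes (0.46), no scaling (0.95), quantile normalization (0.16), spike-in scaling (1.05), total gene signal (0.087), the authors' value table (0.16) and array weights (0.059), and leaving out 1 array gave -0.14 to 0.21. The number of miRNAs called, 113, was 75 without scaling, 63 with spike-in scaling, 20 with cyclic loess over all probes and 179 with array weights, and 84 to 138 without 1 array. Of these calls 58, 55, 7 and 88 were higher in adult, and 90 of 124 with the percentile over all probes and 33 of 80 with normexp. With the replicate block 95 miRNAs were called, and miR-335 stood at -0.0071 (adjusted p = 0.978). The labels tie the shared numbers to no animal or day. Arrays of the same number correlated in their deviations at 0.18 and 0.48 for numbers 1 and 3, where the same number was also the best match, and at -0.09 and -0.23 for numbers 2 and 4, so that not every pair exceeded the 0.1 required. With the replicate block no ratio could pass, since the exact sign-flip test over 4 pairs allows no p below 0.125 (smallest adjusted p 0.175). The ratio to miR-375 turned to 0.58 in the authors' value table. Leaving out 1 array gave -0.59 to -0.28 for the ratio to miR-375, -2.03 to -1.62 for miR-7a, 0.0086 to 0.37 for miR-126, 1.58 to 2.00 for miR-199a-5p, -1.18 to -0.69 for miR-143, 0.61 to 1.05 for miR-130a and -2.30 to -1.92 for miR-132. The last depends on the floor, with -2.91 for a floor 2 lower, -1.50 for a floor 1 higher and -0.65 with normexp. With cyclic loess over all probes the calls fell to 2 in the secretion list, 1 in the glucose-raised list and 0 in the imprinted list. With normexp the glucose-raised list had 1, and the imprinted list had 1 with no scaling, quantile normalization, spike-in scaling, cyclic loess on bright probes, normexp and total gene signal. Other counts rose. With cyclic loess on bright probes the secretion list had 13 and the glucose-raised list 3. The glucose-raised list also had 3 in the authors' value table. The cause of these changes was not tested. The number of arrays limits the precision.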
